A study of Mus musculus with 12 samples.

Results

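A group of 10 genes of the cellular response to low oxygen and of glycolysis was followed in the injured mouse cecum: Hif1a, Egln3, Vegfa, Adm, Slc2a1, Hk2, Pfkfb3, Pgk1, Ldha and Car9. They were chosen by name, as 10 of the 37074 gene names on the array, and every non-control probe that carries one of these names was read, which gave 19 of 56605 probes. The rule reads names only and no measured value, but the names were chosen with earlier results of these data known. The same holds for the lists of other genes used below.

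The samples were cecum tissue of C57BL/6 mice, 3 samples in each of 4 groups: a sham control and tissue taken 3, 12 or 72 h after the cecum had been cauterized, an injury of the serosa that is followed by adhesions. Total RNA was labelled with Cy3 and each sample was hybridised to 1 one-colour array of mouse genes. By the study's methods the sham tissue was collected right after the operation, so time since the laparotomy and time since the burn cannot be told apart. The labels name no transgene and no drug in any group. A piece of cecum holds epithelium, muscle, vessels, serosa and whatever cells entered it, so fewer cells of a type and less RNA per cell cannot be told apart.

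When oxygen is plentiful, prolyl hydroxylases mark the alpha subunit of hypoxia-inducible factor (HIF) for destruction, and when oxygen is scarce the subunit escapes, pairs with its partner ARNT and binds short DNA motifs beside its targets. Those targets bring in glucose, break it down to lactate, send out signals for vessels and buffer the acid that results. Much of HIF-1 alpha is controlled at the protein, which an array of transcripts does not see, and inflammatory signals and immune cells also raise several of these transcripts.

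A level is given below as the log2 intensity of a probe minus the 75th percentile of its array, so that 0 is the level of a rather bright probe, and levels were compared between groups and never between probes. A gene was represented by its brightest probe. Differences were tested with limma on all 56605 probes, a gene is said to have risen or fallen where the adjusted p was below 0.05, and it is called where the fold also exceeded 2. By array, the share of probes well above background lay between 60.2% and 65.2%, and replicate arrays of a group correlated with r between 0.985 and 0.992. The labels give male mice, but on all 12 arrays the female transcript Xist was well above background and the Y-linked Ddx3y and Eif2s3y were not, so every sample went against its labelled sex in the same way. The arrays lay on 2 slides: sham, 3 h and 2 of the 12 h samples on slide 1, the last 12 h sample and the 3 samples of 72 h on slide 2. Every difference of the 72 h group is therefore bridged to the other groups by 1 array when the slide is taken into account. That array, the third of 12 h, was the lowest of its group for 8 of the 10 genes, and the third 72 h array was the highest of its group for 9.

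Cell markers moved with the groups. The summed linear level of 10 neutrophil markers, each in multiples of the array's 75th percentile, lay between 81.5 and 92.7 in sham, 372 and 629 at 3 h, 865 and 921 at 12 h, then 371 and 677 at 72 h. The sum of 8 epithelial markers lay between 1090 and 1271 in sham, 1609 and 1792 at 3 h, 1231 and 1493 at 12 h, then 627 and 921 at 72 h. Neutrophil markers thus stood highest at 12 h, with 9 of 10 called higher, and epithelial markers lowest at 72 h. The remaining neutrophil marker, Csf3r, went the other way and made up most of the sham sum (sham level 6.37). It differed from sham by −0.44, −0.34 and −0.40 at 3, 12 and 72 h (limma adjusted p = 0.0318, 0.0784 and 0.0439). The neutrophil sum therefore understates the rise of most of its markers. Among the epithelial markers Cdx2 was lower than in sham at each time, also at 3 h where the sum was higher. It differed by −0.72, −0.91 and −1.01 at 3, 12 and 72 h (limma adjusted p = 0.0391, 0.0122 and 0.00854). The 8 macrophage markers were all called higher at 72 h (sums of 97.1 to 110 against 31.2 to 33.2 in sham), as were 5 of 6 fibroblast markers. The 6 smooth muscle markers were all called lower at 12 h (108 to 175 against 325 to 362), and 4 of 5 red cell markers were called higher at 3 h. Of 6 endothelial markers 3 were called higher at 72 h (7.98 to 18.3 against 6.99 to 7.82 in sham). Some defining markers were missing in a group, namely Cxcr2 of neutrophils, well above background on 0 of 3 sham arrays, and Upk3b and Lrrn4 of mesothelium, on 0 of 3 arrays at 3 h and at 12 h, and Plin1 of fat cells, on 0 of 3 at 12 h. Of the 5 mesothelial markers 2 were called lower at 3 h and at 12 h. Wt1 and Upk1b did not pass at 3 h (0.02 and 0.60) or at 12 h (0.20 and 0.03). Both were called higher at 72 h, by 4.40 and 1.78 (limma adjusted p = 0.000787 and 0.00121). The mesothelial sum was 4.7 to 12.6 at 72 h, against 2.1 to 2.8 in sham. What part these cells had in the results below was not tested.

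The sequences before the start of transcription show what kind of DNA lies beside these genes. RefSeq windows (build GRCm38.p6) of the 250 bases before the annotated start were found for all 10 genes, 13 windows in all. They were searched on both strands for ACGTG, a form of the core of the HIF binding motif. It reads CACGT on the other strand and overlaps itself as CACGTG. No other form of the core was searched. A match was present in 10 of the 13 windows and in 9 of the 10 genes, against 16.6% of all 32851 windows and 18.5% of 27025 gene symbols. The windows of these genes are rich in G and C (50.8% to 69.6%, against a median of 52.4% for all), and the share with a match grows with that content, from 11.5% below 50% to 23.0% from 60% upward. In that last class 7 of 7 windows of these genes held a match, and in the class between, where 17.5% of all windows did, 3 of 6. A match describes the letters only, and no binding was measured. The 10 genes were picked by name for the response to low oxygen and for glycolysis. Their larger share of matches is therefore a description and not an independent test. In all, 5 windows are shown to set genes with different courses side by side. They are those of Hk2 and Pfkfb3, which moved a great deal, Pgk1 and Ldha, which moved little, and Adm, which moved and has no ACGTG there. Capitals mark the matches, and each window is read 5′ to 3′ on the strand of the gene.
Hk2, chr6:82774455-82774704, minus strand: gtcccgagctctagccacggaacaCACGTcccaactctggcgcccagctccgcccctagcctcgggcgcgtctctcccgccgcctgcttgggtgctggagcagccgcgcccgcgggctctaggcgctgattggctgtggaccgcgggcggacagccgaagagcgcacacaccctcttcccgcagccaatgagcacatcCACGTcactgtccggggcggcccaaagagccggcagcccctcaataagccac
Pfkfb3, chr2:11553930-11554179, minus strand: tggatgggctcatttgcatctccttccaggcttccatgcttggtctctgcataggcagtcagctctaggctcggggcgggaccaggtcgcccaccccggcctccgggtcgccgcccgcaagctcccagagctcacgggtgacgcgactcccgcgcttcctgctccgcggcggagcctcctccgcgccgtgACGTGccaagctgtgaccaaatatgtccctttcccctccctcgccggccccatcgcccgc
Pgk1, chrX:106186850-106187099, plus strand: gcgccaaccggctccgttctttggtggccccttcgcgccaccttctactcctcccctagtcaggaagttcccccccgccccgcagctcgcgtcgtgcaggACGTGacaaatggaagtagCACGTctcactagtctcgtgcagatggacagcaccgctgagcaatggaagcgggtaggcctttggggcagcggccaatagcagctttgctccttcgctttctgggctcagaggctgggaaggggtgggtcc
Ldha, chr7:46845554-46845803, plus strand: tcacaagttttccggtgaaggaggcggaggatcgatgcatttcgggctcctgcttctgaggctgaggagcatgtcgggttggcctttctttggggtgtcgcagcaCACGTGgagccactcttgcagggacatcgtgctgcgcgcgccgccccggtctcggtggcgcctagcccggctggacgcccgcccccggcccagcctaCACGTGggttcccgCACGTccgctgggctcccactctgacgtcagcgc
Adm, chr7:110627407-110627656, plus strand: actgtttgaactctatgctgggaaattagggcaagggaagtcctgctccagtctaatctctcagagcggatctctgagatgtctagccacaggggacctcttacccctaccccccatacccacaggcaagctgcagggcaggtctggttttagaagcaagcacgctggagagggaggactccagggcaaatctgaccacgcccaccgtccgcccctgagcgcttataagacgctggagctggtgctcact

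The Hk2 window held matches starting 226 and 52 bases before the start, and that of Pfkfb3 one starting at 60 bases. Pgk1 had 2 places, at 150 and 131 bases, and Ldha 5, of which 2 pairs overlap as CACGTG. Whether matches go with changes of RNA was not tested. Among the windows not shown, Hif1a held 3 places (2 of them overlapping), Egln3, Slc2a1, Car9 and the second start of Vegfa 1 each, and the second start of Pfkfb3 an overlapping pair. The first start of Vegfa and the second of Ldha held no match.

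**Figure D1:**
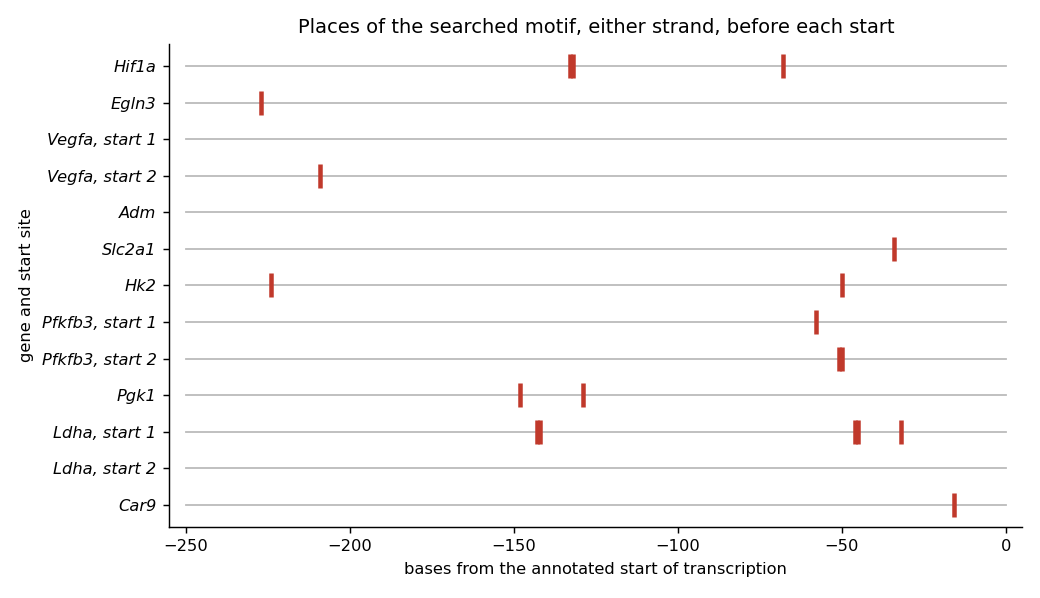
Places of the motif ACGTG on either strand in the 13 RefSeq windows of the 10 genes; the x axis gives bases from the annotated start (0), each grey line is 1 window and each red mark 1 place, with overlapping places drawn side by side. Ldha held 5 places in its first window, and Adm none.

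Across the 10 genes, 4 were called higher at 3 h (Hif1a, Adm, Hk2 and Pfkfb3), where 3.26% of all genes were. At 12 h 5 were called higher, the same 4 with Egln3, against 4.10% of all genes. At 72 h 2 were called higher (Hif1a and Pfkfb3) against 4.55%, and 1 lower (Car9) against 4.30%. Without the fold threshold, 5, 6 and 5 passed at the 3 times, against 18.7%, 21.2% and 20.7% of all genes, each of them higher except Car9 and Ldha, which fell at 72 h. On the log2 scale the 10 genes had median differences from sham of 0.72, 1.27 and 0.14 at the 3 times, beside 0.08, −0.01 and −0.14 for all genes. Called genes were a larger share of the 10 than of all genes at 3 and 12 h, while at 72 h the calls rest on 3 genes and go in both directions. Because the 10 were chosen with earlier results of these data known, the larger share is a description and not an independent test. The array as a whole also drifted, since the median of all genes between 72 h and 3 h was −0.26, and quantile normalization brought it to −0.01.

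**Figure D2:**
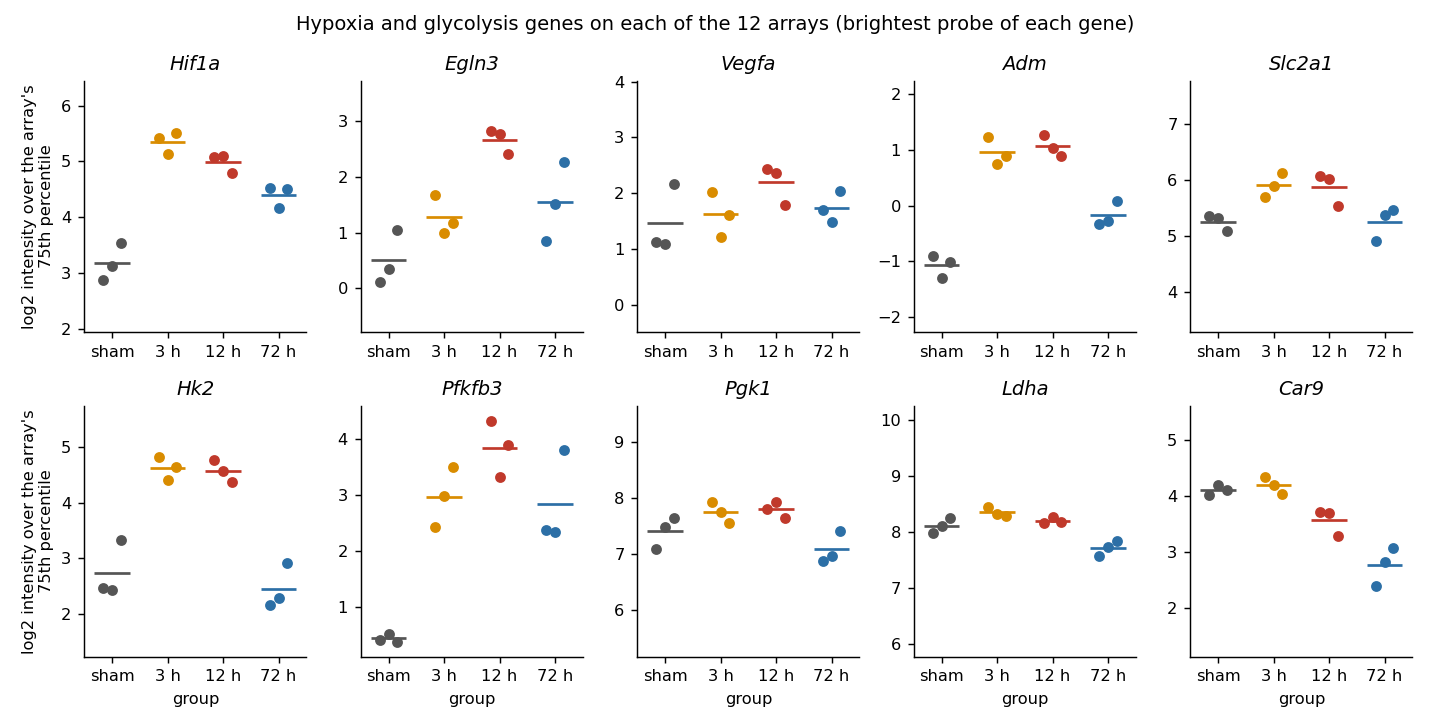
Level of the brightest probe of each of the 10 genes on each array; the y axis is log2 intensity over the array's 75th percentile, every panel spans the same range of log2 units, points are single arrays (3 per group) and lines are group means. Hk2 and Adm stood high at 3 and 12 h and lower at 72 h, Pfkfb3 was above sham on all 9 arrays after injury, and Car9 was lowest at 72 h.

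Hif1a, the oxygen-regulated subunit of HIF-1, had risen by 3 h and was still above sham at 72 h. Its brightest probe (NM_010431, chr12:75047819-75047878, mouse build mm9) read 2.88, 3.12 and 3.54 in sham, 5.42, 5.14 and 5.50 at 3 h, 5.08, 5.10 and 4.80 at 12 h, then 4.52, 4.16 and 4.50 at 72 h. The 4 groups did not overlap, with 3 h on top and sham at the bottom. The rise over sham was 4.50-fold at 3 h (log2 2.17, SE 0.19, limma adjusted p = 8.95e-05), 3.51-fold at 12 h (1.81, adjusted p = 0.000162) and 2.32-fold at 72 h (1.21, adjusted p = 0.00187). From 3 h to 72 h the level fell by 0.96 (SE 0.19, limma adjusted p = 0.00401), short of the fold threshold. It would have been called without the second 3 h array (−1.07) or without the first (−1.02) or the third (−1.01) at 72 h, and with the slide as a block the fall was −0.67 with a limma adjusted p = 0.242.

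In all, 3 probes carry the name Hif1a, and they did not move alike. The one designed on AK048798 (chr12:75027538-75027597) lies on the minus strand while the gene runs on the plus strand, so that it reads RNA of the opposite strand. It is printed here in full, 5′ to 3′, with no part singled out, because it is the probe that sets this course apart.
Hif1a, probe on AK048798: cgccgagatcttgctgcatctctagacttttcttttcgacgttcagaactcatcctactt
It read −2.38, −2.40 and −1.46 in sham, −1.25, −1.34 and −1.19 at 3 h, −0.42, −0.47 and −0.62 at 12 h, then −1.002, −1.09 and −0.80 at 72 h. Here 12 h and not 3 h stood highest. The differences from sham were 0.82 (limma adjusted p = 0.029), 1.57 (0.000908) and 1.11 (0.00675), each SE 0.22, so that it was called at 12 and 72 h. The third probe (AK017853, plus strand) rose by 0.999, 0.98 and 0.62 (limma adjusted p = 0.00606, 0.00559 and 0.0465) and was called at no time. The mean of the 3 probes rose by 0.98 at 72 h, just under the threshold, and by that mean Hif1a would not be called there. No genome of the probes' build was used here, so the exons they fall in were not assigned.

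Egln3, a prolyl hydroxylase that marks HIF alpha subunits and is itself a HIF target, stood out at 12 h. It read 0.11, 0.34 and 1.05 in sham, 1.67, 1.0 and 1.18 at 3 h, 2.82, 2.77 and 2.40 at 12 h, then 0.85, 1.52 and 2.27 at 72 h. All 12 h arrays lay above all others, and the 72 h arrays spread from within the sham range to close to the 12 h range. The rise at 12 h was 4.48-fold (log2 2.16, SE 0.36, limma adjusted p = 0.00208). The differences from sham at 3 and 72 h, 0.78 and 1.05, did not pass (limma adjusted p = 0.152 and 0.0661), with 95% intervals of −0.01 to 1.57 and 0.25 to 1.84. Without the third sham array or without the first 72 h array the 72 h difference was called (1.32 and 1.39).

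From 3 h to 12 h Egln3 rose by 1.38 (SE 0.36, limma adjusted p = 0.0405), the one call among the 10 genes for that step, where 3.46% of all genes were called. That call was not kept with the slide as a block (1.52, limma adjusted p = 0.0732), nor without any 1 of 8 arrays, namely the second sham array, each of the 3 h arrays, each of the 12 h arrays and the second 72 h array, where the difference lay between 1.24 and 1.58.

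The other 11 genes of oxygen sensing showed small differences. None of them was called by limma at 3, 12 or 72 h, while 1, 5 and 4 had an unadjusted p below 0.05, as did 2, 5 and 4 by the methods' test. The count called lower at 12 h became 1 with the slide as a block or with the percentile over bright probes, and up to 2 without 1 array (2 without the first sham array). Cited2, which competes with HIF for its coactivator, fell at each time, by 0.81, 0.57 and 0.82 (limma adjusted p = 0.00268, 0.0122 and 0.00229). Vhl, the part of the ubiquitin ligase that takes hydroxylated HIF away, rose by 0.39 and 0.42 at 12 and 72 h (limma adjusted p = 0.0114 and 0.00904). Hif1an, Crebbp and Hif3a were the remaining genes that fell at 12 h, by 0.43, 0.40 and 0.99 (limma adjusted p = 0.0307, 0.0193 and 0.0186). Those 5 names were chosen after their values were seen. The list's median difference was −0.15, −0.03 and −0.11, beside 0.08, −0.01 and −0.14 for all genes.

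Of the signals to vessels, adrenomedullin moved and vascular endothelial growth factor A did not pass the test. Adm, a peptide that widens vessels and tightens their endothelium, read −0.89, −1.30 and −1.01 in sham, 1.23, 0.75 and 0.89 at 3 h, 1.27, 1.03 and 0.89 at 12 h, then −0.33, −0.28 and 0.08 at 72 h. Sham, 72 h and the early times formed 3 separate bands, and 3 h and 12 h overlapped. The rise was 4.07-fold at 3 h (log2 2.03, SE 0.18, limma adjusted p = 9.37e-05) and 4.38-fold at 12 h (2.13, adjusted p = 4.72e-05). At 72 h Adm was still 0.89 above sham (limma adjusted p = 0.00656), under the fold threshold, and with the slide as a block that difference was 1.16 with an adjusted p = 0.0903.

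Adm fell by 1.24 from 12 h to 72 h (SE 0.18, limma adjusted p = 0.00159) and stood 1.13 lower at 72 h than at 3 h (limma difference −1.13, adjusted p = 0.00125). With the slide as a block these were −1.06 (limma adjusted p = 0.051) and −0.87 (limma adjusted p = 0.116), and within slide 2, where 1 array of 12 h meets 3 of 72 h, −1.06 (limma adjusted p = 0.208). Without the first 3 h array the difference between 72 h and 3 h was −0.996, just short of 2-fold.

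Vegfa, the main growth factor for endothelium, has 4 probes on the array, and none of them passed the test against sham at any time. The brightest (NM_001025250, chr17:46155512-46155571, mm9) read 1.13, 1.08 and 2.17 in sham, 2.03, 1.22 and 1.62 at 3 h, 2.44, 2.36 and 1.79 at 12 h, then 1.71, 1.49 and 2.03 at 72 h. The third sham array lay among the 12 h arrays, and all groups overlapped. Its differences from sham were 0.16 (95% interval −0.56 to 0.88), 0.73 (0.01 to 1.45) and 0.28 (−0.44 to 0.998), with limma adjusted p = 0.762, 0.147 and 0.584, and the moderated F over the 3 times had a limma adjusted p = 0.261. Without the third sham array the 12 h difference was 1.09 (limma adjusted p = 0.0231) and would be called. The other 3 probes differed from sham by −0.19, 0.20 and 0.19 at 3 h, by 0.31, 0.68 and 0.19 at 12 h, and by 0.21, 0.39 and 0.03 at 72 h, so a rise of the size seen in Adm lay outside the interval of every Vegfa probe at 3 h and at 12 h.

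Of 14 genes that act with these signals, ligands and receptors of the 2 families, 1 was called higher and 1 lower at 3 h, 2 and 3 at 12 h, and 1 higher at 72 h, beside 3.26%, 4.10% and 4.55% of all genes called higher and 4.11% and 4.96% called lower at the first 2 times. These counts of 1 to 3 genes moved with the processing. The count lower was 0 at 3 h with the slide as a block, after quantile normalization, with normexp or in the deposited table, and 0 to 1 without 1 array (0 without the first or second of sham, the second or the third of 3 h, any of 12 h or the second of 72 h), while at 12 h it was 0 with normexp and 1 to 3 without 1 array (1 without the first or second array of sham or of 12 h). Ramp3, which turns the receptor Calcrl into one for adrenomedullin, rose by 2.37 and 2.07 at 3 and 12 h (SE 0.22, limma adjusted p = 0.000138 and 0.000189), and Ramp2, its counterpart in vessels, by 1.30 at 72 h (limma adjusted p = 0.0017). The count higher at 72 h was 0 with the slide as a block and 3 without the third 72 h array, and the part of the endothelial markers, given above, was not tested. Figf (also called VEGF-D) fell by 1.80 and 2.03 at 3 and 12 h (SE 0.56, limma adjusted p = 0.0494 and 0.0274). Vegfc fell by 1.002 and Ramp1 by 1.19 at 12 h (limma adjusted p = 0.000137 and 0.00312). Adm2 was called higher at 12 h, but was well above background on 1 of 3 sham arrays. The list's medians were −0.23, −0.26 and 0.39.

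**Figure D3:**
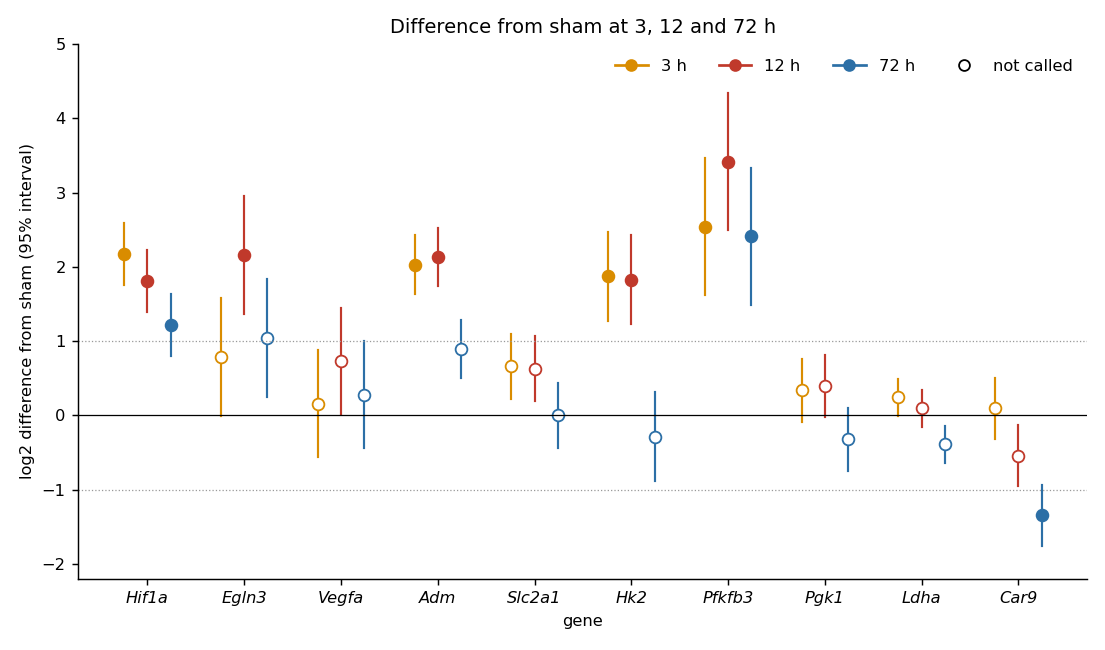
Difference from sham of the 10 genes at 3, 12 and 72 h, on the log2 scale, with 95% intervals of the limma fit; filled points were called, open points were not, and dotted lines mark a 2-fold difference. Pfkfb3 rose by 3.42 at 12 h, Car9 is the filled point below 0 at 72 h, and the intervals of Vegfa and Pgk1 stay within 1.45 of 0 on either side.

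In glycolysis Hk2 and Pfkfb3 rose strongly and Slc2a1 slightly, while Pgk1 and Ldha stayed close to sham at 3 and 12 h. Slc2a1, the glucose transporter GLUT1, read 5.35, 5.32 and 5.08 in sham, 5.70, 5.89 and 6.13 at 3 h, 6.07, 6.01 and 5.53 at 12 h, then 4.91, 5.37 and 5.46 at 72 h. The 3 and 12 h arrays all lay above the sham arrays, and those of 72 h spread around them. The rises were 0.66 at 3 h and 0.62 at 12 h (SE 0.20, limma adjusted p = 0.0419 and 0.0476), close to the threshold, and 0.00 at 72 h. After quantile normalization they were 0.37 and 0.52 (limma adjusted p = 0.222 and 0.0759), and the test was passed in 5 and 2 of the 12 fits that left out 1 array.

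Hk2, the inducible hexokinase that traps glucose in the cell, was high early and back at the sham level by 72 h. It read 2.47, 2.42 and 3.34 in sham, 4.81, 4.41 and 4.64 at 3 h, 4.77, 4.57 and 4.37 at 12 h, then 2.16, 2.29 and 2.91 at 72 h. Both early groups lay wholly above sham and above 72 h, which overlapped each other. The rise was 3.67-fold at 3 h (log2 1.87, SE 0.27, limma adjusted p = 0.00138) and 3.55-fold at 12 h (1.83, adjusted p = 0.00115), and the difference at 72 h was −0.29 (95% interval −0.89 to 0.31, limma adjusted p = 0.505).

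The fall of Hk2 was 2.11 from 12 h to 72 h (SE 0.27, limma adjusted p = 0.000911) and 2.16 from 3 h to 72 h, the widest among the 10 genes for both steps (limma difference −2.16, adjusted p = 0.000401). For these steps 3.19% and 5.51% of all genes were called lower, and 2 and 3 of the 10 genes were, Adm and Hk2 with Car9 as the third in the longer step. With the slide as a block the Hk2 differences were −1.91 (limma adjusted p = 0.0317) and −1.86 (limma adjusted p = 0.0801), and within slide 2 the first was −1.91 with a limma adjusted p = 0.178.

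Pfkfb3, which makes the activator of phosphofructokinase and so opens the committed step of glycolysis, rose most. Its brightest probe (NM_133232, chr2:11393579-11393638, mm9) read 0.41, 0.52 and 0.37 in sham, 2.42, 2.99 and 3.51 at 3 h, 4.34, 3.32 and 3.90 at 12 h, then 2.38, 2.34 and 3.81 at 72 h. Sham was narrow and lay far under the other 9 arrays, and the third 72 h array stood apart from its group, within the 12 h range. The rise was 5.81-fold at 3 h (log2 2.54, SE 0.42, limma adjusted p = 0.00261), 10.7-fold at 12 h (3.42, adjusted p = 0.000385) and 5.31-fold at 72 h (2.41, limma adjusted p = 0.00326). With the slide as a block the 72 h rise was 2.34 with a limma adjusted p = 0.154. The step from 12 h to 72 h was −1.01 (limma adjusted p = 0.127), and without the third 72 h array it was −1.49 (limma adjusted p = 0.0168).

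The second Pfkfb3 probe spans 1414 genomic bases (chr2:11404189-11405602), so that its 60 bases join sequence from separate places of the gene, as a spliced RNA does. It is printed, 5′ to 3′ and with no part singled out, as it reads spliced Pfkfb3 RNA in a second place.
Pfkfb3, probe across 1414 bases: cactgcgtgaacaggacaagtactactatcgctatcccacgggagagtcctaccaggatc
It was well above background on 0 of 3 sham arrays and on all 9 others. Against the background limit of the sham arrays it was at least 4.16-fold higher at 3 h, at least 8.95-fold higher at 12 h and at least 3.48-fold higher at 72 h. These bounds were not tested. The limma test used the measured sham values in place of the limit (limma adjusted p = 0.00208, 0.000317 and 0.00302). The order of the times was that of the first probe.

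Pgk1, one of the ATP-yielding enzymes of glycolysis, differed from sham at no time in a way that passed the test. It read 7.08, 7.49 and 7.65 in sham, 7.93, 7.75 and 7.55 at 3 h, 7.81, 7.94 and 7.65 at 12 h, then 6.88, 6.97 and 7.41 at 72 h. The early arrays overlapped with sham, and so did the 72 h arrays from below. The differences from sham were 0.34, 0.39 and −0.32 (SE 0.19, limma adjusted p = 0.23, 0.183 and 0.271), with 95% intervals of −0.08 to 0.76, −0.03 to 0.81 and −0.74 to 0.10. From 12 h and from 3 h to 72 h it fell by 0.72 and by 0.66 (limma adjusted p = 0.0265 and 0.0247). Under the slide block these were −0.57 and −0.43 (limma adjusted p = 0.261 and 0.467). The falls stand beside medians of all genes of −0.14 and −0.26, and after quantile normalization they were −0.48 and −0.19 (limma adjusted p = 0.0564 and 0.415). A second probe with this name (BG064745) lies on the strand opposite to the gene and passed no test against sham.

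Ldha, the muscle-type subunit of lactate dehydrogenase, read 7.97, 8.10 and 8.24 in sham, 8.45, 8.32 and 8.28 at 3 h, 8.16, 8.26 and 8.18 at 12 h, then 7.57, 7.74 and 7.84 at 72 h. The early arrays lay in the upper part of the sham range or just over it, and the 72 h arrays wholly under it. The differences at 3 and 12 h were 0.25 and 0.09 (SE 0.11, limma adjusted p = 0.15 and 0.645), and at 72 h Ldha fell by 0.39 (limma adjusted p = 0.0339). Its second probe differed by 0.45, 0.42 and −0.50, none of which passed (limma adjusted p = 0.162, 0.201 and 0.126). From 3 h to 72 h the probes fell by 0.64 and by 0.95 (limma adjusted p = 0.00224 and 0.00738). Under the slide block the brightest probe differed by −0.36 from sham at 72 h and by −0.60 from 3 h (limma adjusted p = 0.348 and 0.0964). After quantile normalization it differed by −0.13 at 72 h from sham (limma adjusted p = 0.305) and by −0.17 from 3 h (limma adjusted p = 0.13).

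The rest of the pathway showed the same mixture of a few large and many small differences. Of the 24 other genes of glucose uptake, glycolysis and lactate export, 3 were called higher at each time, and 1, 5 and 2 were called lower at 3, 12 and 72 h, beside 3.26%, 4.10% and 4.55% of all genes called higher and 4.11%, 4.96% and 4.30% called lower. The list's median differences were 0.01, −0.11 and −0.33.

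The 3 called higher were the same at each time. Slc2a3, the glucose transporter GLUT3 of neurons and white blood cells, rose by 1.60, 3.07 and 1.84 (SE 0.31, limma adjusted p = 0.00575, 0.000133 and 0.00267). Hk3, a hexokinase of myeloid cells, rose by 1.15, 2.83 and 2.55 (SE 0.25, limma adjusted p = 0.0102, 6.31e-05 and 0.000146). Slc16a3, the lactate exporter MCT4, rose by 1.21, 3.49 and 2.98 (SE 0.37, limma adjusted p = 0.045, 0.000176 and 0.000587). In each of the 3 the difference was widest at 12 h, the time at which the neutrophil sum was also highest. That sum was similar at 3 h (372 to 629) and 72 h (371 to 677). Hk3 and Slc16a3 stood 1.40 and 1.76 higher at 72 h than at 3 h (limma adjusted p = 0.00237 and 0.00552). Slc2a3 differed by 0.25 in that step (limma adjusted p = 0.551). All 8 macrophage markers were called higher at 72 h than in sham. The part of either cell type was not tested.

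The genes that fell included enzymes of muscle. Pfkm, the phosphofructokinase of muscle, fell by 1.09 and 1.83 at 3 and 12 h (SE 0.13, limma adjusted p = 0.000614 and 2.36e-05), and Eno3, the enolase of muscle, differed by −1.18 and −2.80 at 12 and 72 h (SE 0.16, limma adjusted p = 0.000615 and 8.45e-06). Slc16a1, the lactate carrier MCT1, fell by 1.04 and 1.06 at 12 and 72 h (limma adjusted p = 0.00501 and 0.00533). Ldhb, the heart-type lactate dehydrogenase, named after its values were seen, was also called lower at 12 h (−1.40, limma adjusted p = 0.00217). The smooth muscle sum was also lower at these times than in sham, and its part was not tested. Gapdh differed by 0.09, −0.04 and −0.33 and Pkm by 0.14, 0.34 and −0.28, none of which passed (limma adjusted p from 0.0558 to 0.896), while Gpi1, the glucose phosphate isomerase, fell by 0.57 at 72 h (limma adjusted p = 0.0245), and these too were named after their values were seen.

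**Figure D4:**
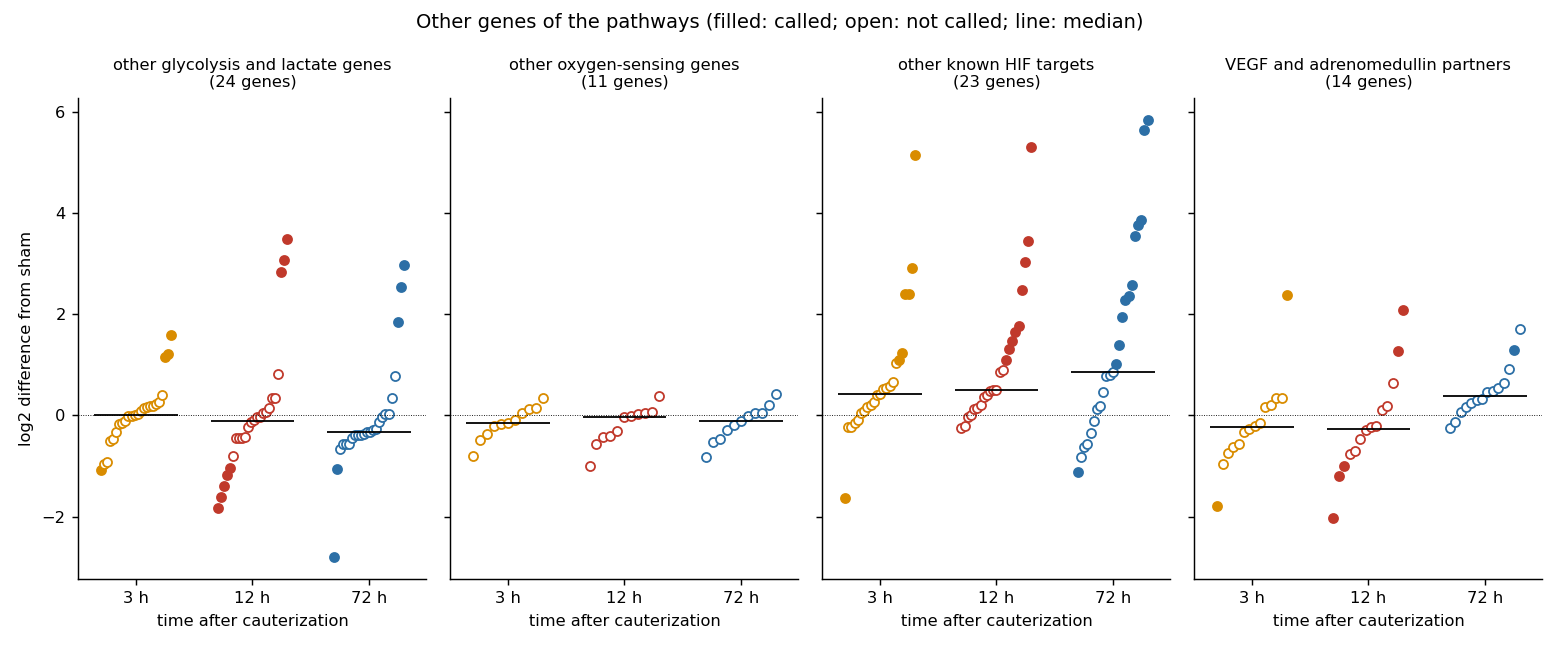
Difference from sham (log2) at 3, 12 and 72 h of the other genes of each pathway list, each point 1 gene in rising order, filled where called and open where not, with the list's median as a line. In the glycolysis list 3 genes stand far above the rest at each time, in the oxygen-sensing list no point is filled, and among the HIF targets 11 are filled above 0 at 72 h.

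Car9, the membrane carbonic anhydrase that is one of the most widely used HIF target genes and is also made by normal gut epithelium, went the other way. It read 4.01, 4.19 and 4.10 in sham, 4.34, 4.20 and 4.04 at 3 h, 3.72, 3.69 and 3.28 at 12 h, then 2.39, 2.82 and 3.06 at 72 h. Sham and 3 h overlapped, the 12 h arrays lay under both and the 72 h arrays lower still. The difference from sham was 0.09 at 3 h (95% interval −0.32 to 0.50, limma adjusted p = 0.753), −0.54 at 12 h (−0.95 to −0.13, limma adjusted p = 0.0642) and −1.34 at 72 h, a 2.54-fold fall (SE 0.18, limma adjusted p = 0.00102). The second probe differed by 0.10, −0.49 and −1.18 and was called at 72 h as well (limma adjusted p = 0.00141).

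From 12 h to 72 h Car9 fell by 0.80 (limma adjusted p = 0.0149) and from 3 h to 72 h by 1.44 (SE 0.18, limma adjusted p = 0.000456). With the slide as a block the 72 h differences from sham, 12 h and 3 h were −0.92, −0.52 and −1.01 (limma adjusted p = 0.146, 0.254 and 0.0905). The epithelial sum was lower at 72 h than in sham on every array, as given above, and 1 of its 8 markers was called lower there. At 12 h, where the Car9 difference of −0.54 did not pass, that sum was not lower (1231 to 1493, against 1090 to 1271 in sham). The part of the epithelium in the Car9 result was not tested.

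**Figure D5:**
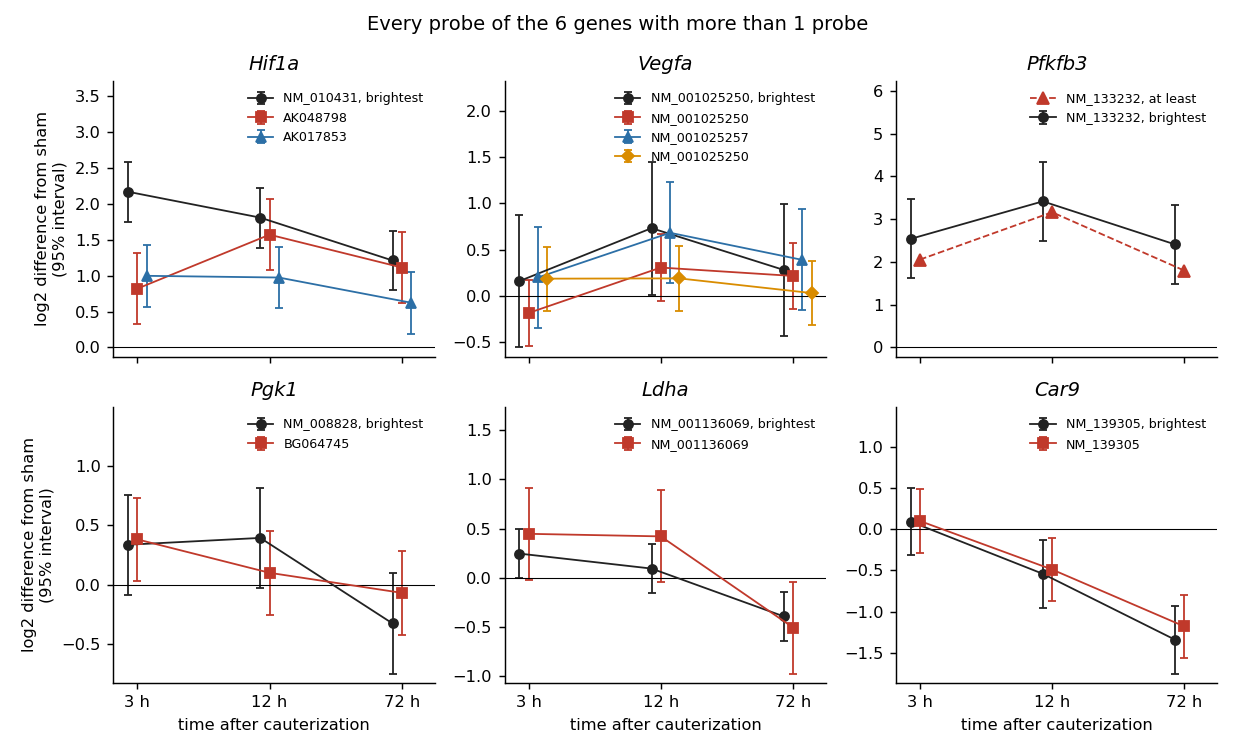
Difference from sham (log2, 95% intervals) of every probe of the 6 genes that have more than 1, by time, each line 1 probe named by the transcript it was designed on and offset sideways for legibility, with the second Pfkfb3 probe, not well above background in sham, drawn as lower bounds (triangles on a dashed line, no intervals). The opposite-strand probe of Hif1a (AK048798) peaks at 12 h (1.57) while the brightest peaks at 3 h (2.17), and both probes of Car9 are lowest at 72 h.

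Other known targets of HIF gave more calls than the glycolysis list. Of 23, 6, 9 and 11 were called higher at the 3 times and 1 was called lower at 3 h and another at 72 h, beside 3.26%, 4.10% and 4.55% of all genes called higher and 4.11% and 4.30% called lower at 3 and 72 h. The medians were 0.42, 0.50 and 0.86. Hmox1, the haem-degrading oxygenase, rose by 2.91, 3.03 and 3.76 (SE 0.23, limma adjusted p = 5.23e-05, 2.51e-05 and 1.22e-05). Angptl4, an inhibitor of lipoprotein lipase, rose by 2.40, 2.48 and 3.55 (SE 0.32), and Nos2, the inducible nitric oxide synthase, by 2.39, 3.45 and 3.86 (SE 0.51), all with limma adjusted p of 0.00961 or lower.

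Some genes of the list modify collagen. Lox, which cross-links it, differed by 0.66 at 3 h (limma adjusted p = 0.242) and rose by 1.47 at 12 h and by 5.85 at 72 h (SE 0.38, limma adjusted p = 0.0211 and 1.74e-05). P4ha1, P4ha2, Plod2 and Loxl2 were named after their values were seen. P4ha1, a prolyl hydroxylase of collagen, rose by 1.65 and 1.95 at 12 and 72 h (limma adjusted p = 0.000316 and 0.000167), and the other three were called at 72 h and not before, by 2.36, 2.58 and 2.29 (limma adjusted p = 0.000146, 0.00172 and 9.01e-05). The fibroblast sum was also highest at 72 h (420 to 940, against 160 to 172 in sham). At 12 h it was lower than in sham (92.1 to 99.3), and 4 of the 6 fibroblast markers were called lower. The part of these cells was not tested. The genes called lower were Ankrd37 at 3 h (−1.63, limma adjusted p = 0.00618) and Higd1a at 72 h (−1.12, limma adjusted p = 0.000788). With the slide as a block, 7 in place of 11 were called higher and 0 in place of 1 lower at 72 h.

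The genes with courses most like those of the 10 were sought among 20791 genes well above background on all 12 arrays, as the lowest root mean square difference over the 12 arrays of log2 values centred on sham. Hif1a ran closest to Spry4 (0.22), Hk2 to Zdhhc13 (0.19), Pfkfb3 to Tnfrsf1b (0.24), Egln3 to Slc1a1 (0.30) and Car9 to Thumpd3 (0.09). Slc2a1 ran closest to Rffl (0.14), Vegfa to Dctd (0.19), Pgk1 to Klhdc4 (0.09) and Ldha to Map2k2 (0.05), and Adm to a transcript without a gene symbol. Within the 10, Hif1a and Adm were nearest to each other (0.32), and so were Pgk1 and Ldha (0.20). Of all genes compared, 0.0337% ran closer to Hif1a than Adm did, and 0.024% closer to Adm than Hif1a did. For the other pair, 2.26% ran closer to Pgk1 than Ldha did, and 9.43% closer to Ldha than Pgk1 did.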

How the data were processed

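The authors scanned 12 one-colour Agilent mouse arrays and deposited, per array, the Feature Extraction output, whose processed intensity per spot is background-subtracted and detrended but not scaled between arrays. A second deposited table holds log2 values that GeneSpring had scaled to the 75th percentile and whose rows are centred on their medians. After the same centring it correlated with the values used here at 0.999973.

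Here each array's processed intensities were put on the log2 scale minus the 75th percentile over 56605 non-control probes, outlier spots were left out (53 to 152 per array), and spots of 1 probe were averaged. With limma 3.58.1 in R 4.3.3, 4 group means were fitted and 6 comparisons made, with Benjamini-Hochberg adjustment over all probes. Calls needed a fold above 2 and an adjusted p below 0.05, the thresholds of the study's methods. The fit was tested on simulated data.

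The study names its samples biological triplicates, the labels do not tie them to single mice, and p-values measure the spread between these samples. The 10 genes and the pathway and marker lists were chosen with earlier results of these data known. Beside every probe of the 10 genes, up to 4 genes per list and time with the widest differences among those called and above background on all arrays of both groups were named, with those called against their list's direction, the genes for the check of sex, and for each of the 10 genes above background on all arrays the 1 with the nearest course. Values of some list genes are not reported here. Promoter windows were matched by symbol and probe positions are the array's own. Depth is not a property of arrays, and 3 of them per group limit the precision. The alternatives tried were other scalings, background correction, filters on dim probes, outlier spots kept, the deposited table, the slide and the replicate number as blocks, fits within a slide, another variance model, fits of 2 groups only, a t statistic paired by replicate number (the methods name a paired test for 2 groups in general and no test for the arrays, and it is called the methods' test here), the mean of a gene's probes, no fold threshold and leaving out each array.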

Additional observations from a re-analysis of the deposited data

Results flagged for a closer look

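The steps below differed between time points by a test of the difference itself, the limma contrast between 2 times after injury, and the effects at both times share the same 3 sham arrays. Egln3 was higher at 12 h than at 3 h by 1.38 (SE 0.36, limma adjusted p = 0.0405). Adm differed between 72 h and 12 h by −1.24 (SE 0.18, limma adjusted p = 0.00159) and between 72 h and 3 h by −1.13 (limma adjusted p = 0.00125). Hk2 differed between 72 h and 12 h by −2.11 (SE 0.27, limma adjusted p = 0.000911) and between 72 h and 3 h by −2.16 (limma adjusted p = 0.000401). Car9 differed between 72 h and 3 h by −1.44 (SE 0.18, limma adjusted p = 0.000456). The groups did not overlap in any of these 6 steps. Steps to 72 h also cross from slide 1 to slide 2, save for 1 array of 12 h, and the values with the slide as a block stand beside each result in the text above.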

How the results depend on the processing

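Of the 10 genes, 4, 5, 3, 1, 2 and 3 were called against sham at the 3 times in order and in the steps from 3 to 12 h, 12 to 72 h and 3 to 72 h. With the slide as a block the last 4 of these counts were 1, 0, 1 and 0, where the standard errors of comparisons of 72 h with sham or 3 h grew 1.81-fold at the median, and within slide 2 the step from 12 to 72 h gave 0. Without a fold threshold 72 h against sham, 12 to 72 h and 3 to 72 h gave 5, 5 and 7. The methods' test with Benjamini-Hochberg adjustment called 0 of the 10 in all 6 comparisons, where 4, 6, 6, 2, 3 and 6 had an unadjusted p below 0.05, and at most 1 gene of the whole array passed in any of them. The study reported large sets of changed genes against sham at each time, which this paired test as run here did not give. The replicate numbers do not pair the samples, since the deviations of same-numbered arrays correlated between −0.16 and 0.09. With the replicate block the step from 3 to 12 h gave 0 (Egln3, limma adjusted p = 0.0652), and the other counts were within 1.5 times.

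Leaving out 1 array gave 4 to 4, 5 to 6, 3 to 4, 0 to 1, 2 to 4 and 2 to 4 calls, with 4 in the step from 12 to 72 h without the third 72 h array. Directions turned only for 4 differences that had not passed the test. Car9 at 3 h was −0.13 after quantile normalization and −0.0205 with the percentile over bright probes, Hk2 at 72 h 0.0136 with the slide as a block and between −0.52 and 0.009 without 1 array, Vegfa at 3 h between −0.0446 and 0.51 and Slc2a1 at 72 h between −0.11 and 0.17 without 1 array. The calls of Hif1a, Adm, Hk2 and Pfkfb3 at 3 h and of these and Egln3 at 12 h were kept in all 12 fits that left out 1 array, and in 13 of 14 other alternatives, the exception being the methods' test. In the other glycolysis list, calls at 3 h without 1 array ranged from 1 to 3 higher and from 1 to 2 lower.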
